A study of Mus musculus with 9 samples.

Results

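The genes described here encode 10 collagen chains of bone, dermis and the junctions between muscle and tendon, chosen by name among the collagens outside cartilage. The rule uses no measured value, although the choice was made with earlier results of these data known. They are 10 of the 43548 gene identifiers measured. Col1a1, Col1a2, Col3a1, Col5a1, Col5a2 and Col24a1 are fibrillar chains, Col12a1, Col14a1 and Col22a1 belong to the fibril-associated collagens with interrupted triple helices, and Col6a1 is a chain of the beaded filaments of type VI collagen.

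Collagen chains assemble as trimers in the endoplasmic reticulum, are secreted as procollagens, are trimmed by extracellular proteases and are then crosslinked by lysyl oxidases. Type I collagen is the main protein of bone, skin and tendon, and type III joins it in the fibrils of dermis and other soft tissue. Type V and the less abundant type XXIV are built into type I fibrils, where type V limits fibril diameter. Types XII and XIV sit on fibril surfaces, and type XXII is best known from the myotendinous junction.

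RNA came from mouse embryos of mixed strain at stage E14.5 and was sequenced in 9 libraries, 3 from each of 3 groups. The MCAGF8 cranial vault carried the Msx2-Cre transgene and a Gt(ROSA)26Sor allele in which Cre removes a stop before a CAG-driven Fgf8b cDNA. Msx2-Cre acts in the head ectoderm and not in the mesenchyme beneath it, and the collected tissue was the layer between skin and brain with the skin peeled away, so the cells that recombined were not the cells meant to be sampled. Vault and base tissue of control embryos lacked Cre and is labelled wildtype, although the crosses as described would also have given controls the allele in its unrecombined form. Each library held a pool of 3 tissue samples and the base was taken from control embryos after their vaults, but which embryos entered which pool is not stated. Values are FPKM, fragments per kilobase of transcript, scaled to the mapped fragments of a library, which correct for length and allow levels of different genes to be set side by side.

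The sums of FPKM per library ran from 793249 to 1315982, and between 16006 and 17281 genes reached 1 FPKM. Fgf8 overlapped between the vaults, with 3.01 to 13.5 FPKM in the control and 9.43 to 19.5 FPKM in the MCAGF8 libraries. Markers showed that the groups differed in the tissues they held. The study describes the control base as dissected cartilage, but the base libraries disagreed. The summed level of 17 cartilage genes was 11950 FPKM in control base replicate 2. It was 1200 and 1805 FPKM in replicates 1 and 3, below all 6 vault libraries (2632 to 6572 FPKM). The summed level of 21 skeletal muscle genes was 1474 to 8667 FPKM in the control vault, 79.4 to 413 in the MCAGF8 vault and 2653 to 15137 in the control base. The sum of 16 bone genes was 5169 to 8038 FPKM in the control vault, 2715 to 3311 in the MCAGF8 vault and 1726 to 3075 in the control base. Sparc, a matrix glycoprotein, weighed heavily in these sums, with means of 4012, 2747 and 1340 FPKM in the same order. Against the base, 14 of the 16 bone genes were lower in the MCAGF8 vault and 2 were higher. Of these 7 were called lower and 1 higher, beside 5.41% and 2.98% of all genes. Skin RNA also moved with the groups. The sum of 13 epidermal genes was 61.0 to 122 FPKM in the control vault, 425 to 1054 in the MCAGF8 vault and 161 to 904 in the control base. Of these genes 10 were higher in the MCAGF8 than in the control vault, and Krt5 and Pkp1 were called, beside 0.23% of all genes called higher. Krt5, a keratin of basal epidermis, measured 5.27, 29.2 and 1.63 FPKM in control vault replicates 1 to 3 and 149, 139 and 252 FPKM in the MCAGF8 vault. The MCAGF8 libraries therefore held epidermal RNA although the skin had been peeled away. The sum of 12 dermal fibroblast genes was 2195 to 2787 FPKM in the control vault, 2887 to 3077 in the MCAGF8 vault and 1156 to 2172 in the control base, with 0 of 12 called between the vaults. The base also held more neural RNA. The sum of 9 brain neuron and progenitor genes was 32.6 to 179 FPKM in the control vault, 42.5 to 80.0 in the MCAGF8 vault and 259 to 749 in the base. Of 8 tested, 6 were called lower in the MCAGF8 vault than in the base, beside 5.41% of all genes. In pooled tissue, fewer cells of a type and less RNA per cell cannot be told apart.

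The members lie on 8 chromosomes of GRCm38 (GENCODE M21 annotation). Col3a1 (chromosome 1 from 45311538 to 45349706, plus strand) and Col5a2 (chromosome 1 from 45374321 to 45503282, minus strand) are neighbours that point towards each other across 24.6 kb. Col14a1 (chromosome 15 from 55307750 to 55520803) and Col22a1 (chromosome 15 from 71795795 to 72034227) share a chromosome but lie far apart. Col6a1 (chromosome 10 from 76708792 to 76726168) lies 85.2 kb from Col6a2, which encodes another chain of the same trimer. Col1a1 lies on chromosome 11 from 94936224 to 94953042, Col1a2 on chromosome 6 from 4504814 to 4541544, Col5a1 on chromosome 2 from 27886425 to 28039514, Col12a1 on chromosome 9 from 79598991 to 79718831 and Col24a1 on chromosome 3 from 145292472 to 145552011. The longest transcripts of Col22a1 and Col24a1, the members whose values set them apart from the others, have 64 and 60 exons.

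RefSeq promoter sequence was at hand for 5 members (Col1a2, Col3a1, Col5a1, Col6a1 and Col24a1), and those of Col1a1, Col5a2, Col12a1, Col14a1 and Col22a1 were not used here. Windows of 270 bases, 250 before the annotated start and 20 from it on, were searched on both strands for TGACGTCA (the cAMP response element), TGTGGT (a core read by RUNX factors), CCAAT and TATAAA. The windows of Col24a1, Col1a2 and Col3a1 are printed here because their genes stood at the extremes of the values that follow, 2 of the 3 most abundant members and the rarest member with a sequence, and capitals mark the letters found.
Col24a1, chr3:145292222-145292491, plus strand: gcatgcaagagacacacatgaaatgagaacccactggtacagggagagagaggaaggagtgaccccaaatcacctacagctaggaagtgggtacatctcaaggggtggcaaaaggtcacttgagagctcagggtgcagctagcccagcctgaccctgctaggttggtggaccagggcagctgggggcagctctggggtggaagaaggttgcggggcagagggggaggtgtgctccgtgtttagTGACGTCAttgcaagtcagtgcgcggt
Col1a2, chr6:4505368-4505637, plus strand: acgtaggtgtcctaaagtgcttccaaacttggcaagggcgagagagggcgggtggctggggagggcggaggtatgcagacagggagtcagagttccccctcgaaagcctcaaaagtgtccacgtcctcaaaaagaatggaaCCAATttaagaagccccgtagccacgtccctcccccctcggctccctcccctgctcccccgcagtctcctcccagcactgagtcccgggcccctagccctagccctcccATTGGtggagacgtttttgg
Col3a1, chr1:45311288-45311557, plus strand: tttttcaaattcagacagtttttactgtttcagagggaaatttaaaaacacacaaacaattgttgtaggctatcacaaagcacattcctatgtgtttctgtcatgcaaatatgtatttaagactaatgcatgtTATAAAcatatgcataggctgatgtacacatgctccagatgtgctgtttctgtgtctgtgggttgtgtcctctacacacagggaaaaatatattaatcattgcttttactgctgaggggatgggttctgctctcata

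The Col24a1 window held a single TGACGTCA, which begins 7 bases before the start and ends on its first base, and 1.73% of the 32851 promoters in the RefSeq table (GRCm38.p6) held these letters. The Col1a2 window held CCAAT beginning 109 bases before its RefSeq start and the reverse complement, ATTGG, at that start itself, while 35.4% of all promoters held either. This window lies inside the GENCODE gene, which begins at 4504814, so the annotations place the start of Col1a2 differently. The Col3a1 window held TATAAA beginning 117 bases before the start, against 12.9% of all promoters. TGTGGT was in 0 of the 5 windows (15.1% of all promoters), and none of the 4 motifs was in those of Col5a1 and Col6a1. A match of letters is a description of the window and not evidence of a site in use.

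In the control cranial vault the type I chains were the most abundant members. Col1a1, the alpha 1 chain of type I collagen, measured 3675, 2664 and 3913 FPKM in control vault replicates 1, 2 and 3. Col1a2, its alpha 2 partner, measured 3416, 2716 and 3304 FPKM in the same order. Col3a1, the only chain of type III collagen, measured 2314, 2775 and 2407 FPKM. The ranges of Col1a1 and Col1a2 overlapped, as did those of Col1a2 and Col3a1. Each of the lower neighbours in the order of means was separated from the next in every library, from Col5a2 (639 FPKM) through Col12a1 (547), Col6a1 (321), Col5a1 (264), Col14a1 (175) and Col24a1 (24.0) to Col22a1 (15.7). Replicate 2, which had the most muscle and the least bone RNA of its group, had the lowest Col1a1, Col1a2, Col5a1, Col22a1 and Col24a1 of the 3 and the highest values of the other 5 members.

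**Figure D1:**
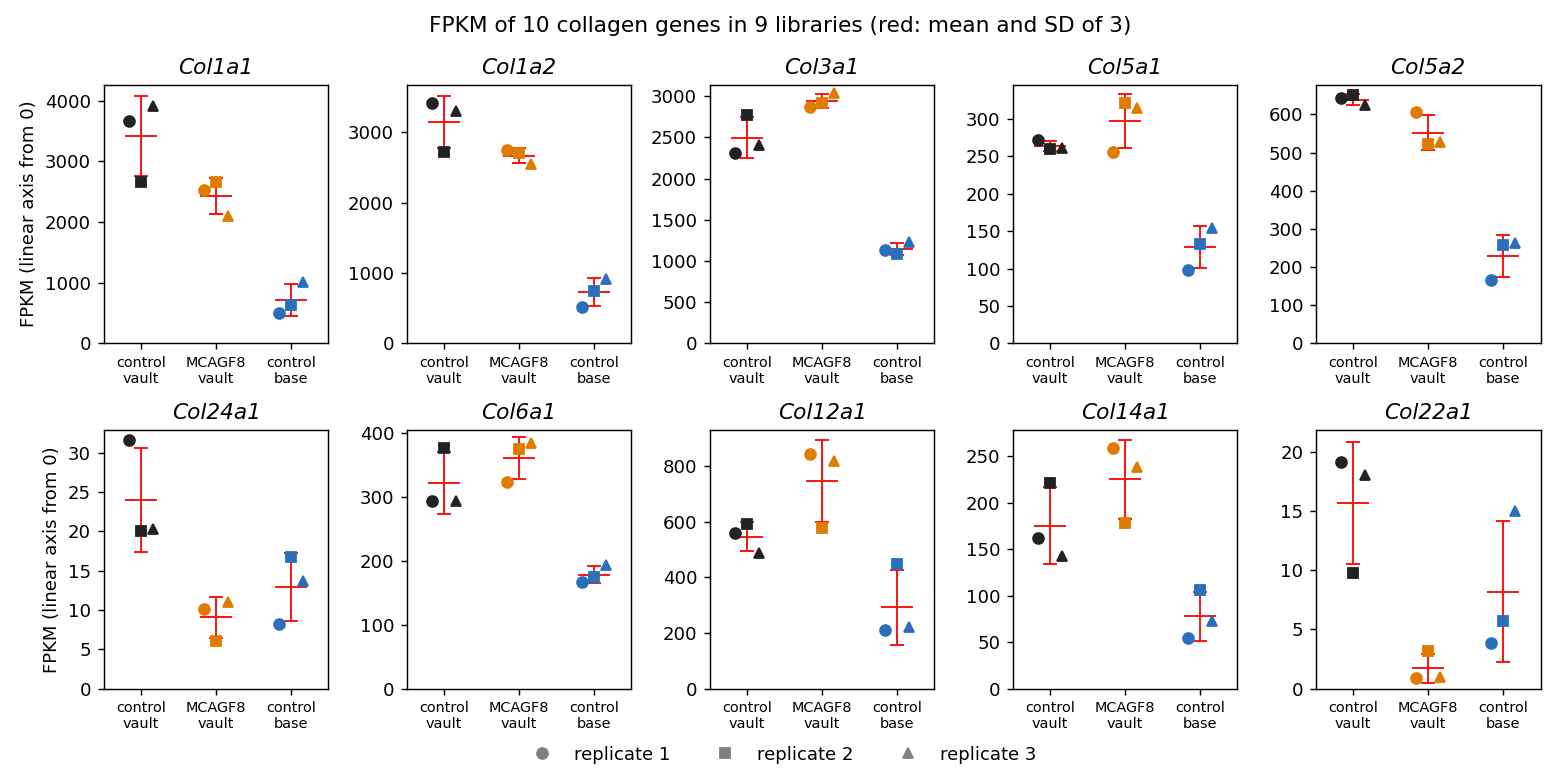
FPKM of each member (linear axis from 0) in the 3 control vault, 3 MCAGF8 vault and 3 control base libraries, with marker shapes for replicates 1 to 3 and the mean ± SD of each group in red. For 7 of the 10 genes both vault groups lie well above the base in every library, Col12a1 has a high base replicate 2 (448 FPKM), and Col22a1 and Col24a1 are lowest on average in the MCAGF8 vault (1.70 and 9.06 FPKM).

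The first comparison asked how the matrix genes of the vault differed when its overlying ectoderm carried the recombined Fgf8b allele. Of the members, only Col22a1 passed the test. The 10 members summed to 11047 ± 662 FPKM in the control vault and 10229 ± 230 in the MCAGF8 vault (SD, n = 3 each). A gene was called where limma, fitted to log2(FPKM + 1) of all 9 libraries over 18714 genes, gave p under 0.05 before and under 0.1 after Benjamini-Hochberg adjustment. Thus 1 member was called lower and 0 were called higher, beside 0.374% of all genes called lower and 0.23% called higher. The members divided evenly, with 5 higher and 5 lower and a median log2 difference of -0.02, against -0.01 over all genes.

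Col1a1 measured 2523, 2666 and 2102 FPKM in MCAGF8 vault replicates 1, 2 and 3, and Col1a2 measured 2746, 2706 and 2542 FPKM. MCAGF8 replicate 2 and control replicate 2 were nearly level for both genes, so the groups overlapped. The log2 difference of Col1a1 was -0.48 with a 95% interval from -1.27 to 0.31 (adjusted p = 0.969, limma). That of Col1a2 was -0.23, from -0.94 to 0.47. Both intervals hold falls as well as rises, so the size of any change in type I collagen was not resolved by 3 libraries a group.

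Col3a1 measured 2869, 2916 and 3038 FPKM in MCAGF8 replicates 1 to 3, higher than in any control vault library, and Col5a2, the alpha 2 chain of type V collagen, measured 605, 522 and 529 FPKM, lower than in any control vault library (642, 651 and 624 FPKM). Neither passed the test, with log2 differences of 0.24 and -0.21. The dermal fibroblast sum was also higher in every MCAGF8 than in any control vault library, but its 12 genes did not move together. By their log2 differences 7 of them rose and 5 fell, with a median of 0.22. Crabp1 weighed heavily in the sum, with means of 403 FPKM in the control vault and 866 FPKM in the MCAGF8 vault. The part of dermal fibroblast RNA in the Col3a1 values was not tested. Without regard to the test, 1 member was higher without overlap of the groups and 3 were lower (Col5a2, Col22a1 and Col24a1), where 9.9% and 9.35% of all genes were. Under quantile normalization the small differences of Col1a2 and Col5a2 changed sign, to 0.15 and 0.049.

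Col5a1, the alpha 1 chain of type V collagen, measured 271, 259 and 261 FPKM in the control vault and 255, 321 and 315 FPKM in the MCAGF8 vault. Col6a1 measured 293, 377 and 293 FPKM in the control vault and 324, 374 and 384 FPKM in the MCAGF8 vault. Both groups overlapped for each gene, and the log2 differences were 0.16 and 0.17. Col12a1, a fibril-surface collagen of dense connective tissue, measured 559, 591 and 490 FPKM in the control vault and 843, 579 and 821 FPKM in the MCAGF8 vault. Col14a1, its close relative in dermis and tendon, measured 162, 221 and 142 FPKM in the control vault and 259, 178 and 239 FPKM in the MCAGF8 vault. For both fibril-surface chains MCAGF8 replicate 2 fell within the control range and the other MCAGF8 libraries above it. Their log2 differences, 0.44 and 0.37, had intervals from -0.27 to 1.14 and from -0.26 to 0.99 (adjusted p = 0.969 each, limma).

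Col22a1, the type XXII chain, was the only member called lower in the MCAGF8 vault than in the control vault. It measured 19.2, 9.75 and 18.1 FPKM in control vault replicates 1 to 3 and 0.932, 3.15 and 1.02 FPKM in MCAGF8 replicates 1 to 3. The mean was 9.21-fold lower, and the log2(FPKM + 1) difference was -2.67 (SE 0.48, adjusted p = 0.0768, limma), a scale that understates the change of a gene near 1 FPKM. The adjusted p ran from 0.0444 to 0.346 over 16 other settings. The call was lost in 7 of them, including the fits without control vault replicate 1 (adjusted p = 0.220) or 3 (0.222), without MCAGF8 replicate 1 (0.346), 2 (0.146) or 3 (0.226), and with no filter on low values (0.196), while the difference stayed between -3.28 and -2.47.

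Markers of bone and of muscle both moved with Col22a1. Ibsp, which encodes the bone sialoprotein of mineralizing matrix, measured 1487, 679 and 1527 FPKM in the control vault and 11.5, 50.7 and 12.5 FPKM in the MCAGF8 vault. The order of libraries was much the same for Ibsp and Col22a1, with the lowest control and the highest MCAGF8 value of each gene in replicate 2. Mylpf, a fast skeletal muscle myosin light chain, measured 446, 2851 and 862 FPKM in the control vault and 9.82, 14.9 and 76.8 FPKM in the MCAGF8 vault. Here the order within groups differed from that of Col22a1, since control replicate 2 had the most Mylpf and the least Col22a1. Of the 16 bone genes 9 were called lower in the MCAGF8 vault and 16 were lower. Of the 21 muscle genes 10 were called lower and 21 were lower, beside 0.374% of all genes called lower. Bglap2, an osteocalcin gene, was at 0 in the 3 MCAGF8 libraries. The 9 tendon genes summed to 538 to 760 FPKM in the control vault and 343 to 386 FPKM in the MCAGF8 vault, with 1 of 8 tested genes called lower. The part of these tissues in the Col22a1 result was not tested.

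Col24a1, a minor fibrillar chain found with type I collagen in developing bone, measured 31.6, 20.04 and 20.3 FPKM in the control vault and 10.1, 6.07 and 11.0 FPKM in the MCAGF8 vault. The highest MCAGF8 value lay well under the lowest control value. The mean was 2.65-fold lower and the log2 difference -1.32 (SE 0.31), which did not pass the test over all genes (adjusted p = 0.187, unadjusted 0.00204, limma). Without control base replicate 2, the library rich in cartilage, which enters this comparison only through the shared estimate of error, the adjusted p was 0.0977 and 2 members were called. MCAGF8 replicate 2 had the lowest Col24a1 of its group and the highest Col22a1, so the members of this pair did not keep the same order among the MCAGF8 libraries.

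**Figure D2:**
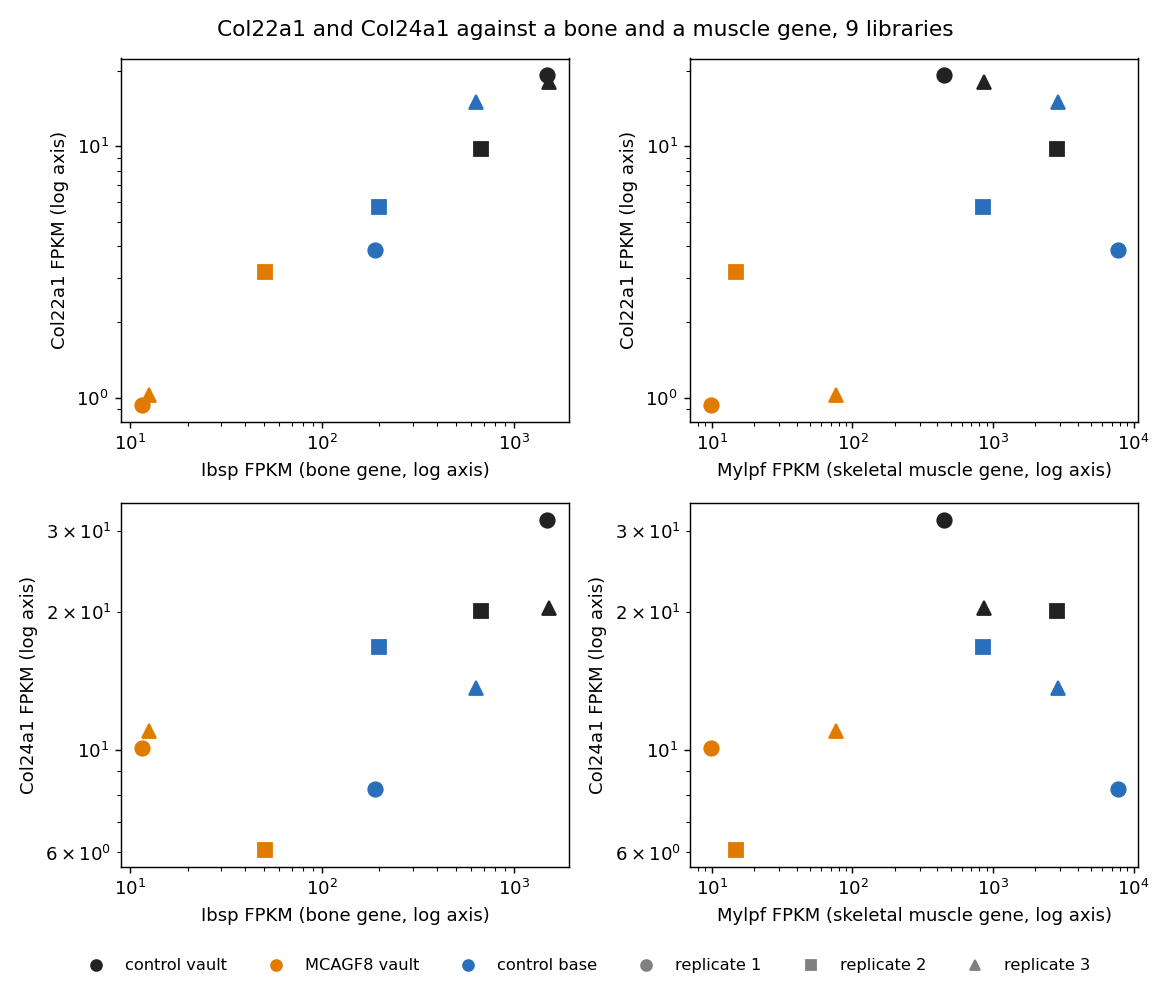
FPKM of Col22a1 (top) and Col24a1 (bottom) against Ibsp, a bone gene (left), and Mylpf, a skeletal muscle gene (right), in the 9 libraries, all axes logarithmic, with colours for groups and shapes for replicates. The r of Col22a1 over the 9 libraries is 0.98 with Ibsp and 0.62 with Mylpf (log2(FPKM + 1)). Ibsp was the nearest of 12933 genes to Col22a1 in these same libraries, and each r also carries the differences between groups. Control base replicate 1 has the most Mylpf (7750 FPKM) and 3.85 FPKM of Col22a1. The part of either tissue was not tested.

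The second comparison set the MCAGF8 vault against the control base, whose skull elements form through cartilage. Of the 10 members 8 were higher in the MCAGF8 vault in every library and were called, between 2.02-fold (Col6a1) and 3.66-fold (Col1a2) by means, beside 2.98% of all genes called higher and 8.91% higher without overlap. Col22a1 was called lower, beside 5.41% of all genes. The median log2 difference of the members was 1.33, against -0.07 over all genes. Because the base libraries disagreed on cartilage content, each value below was also taken without replicate 2, and 9 members were then called as well.

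Col1a1 measured 500, 629 and 1013 FPKM in control base replicates 1, 2 and 3, and Col1a2 measured 520, 741 and 921 FPKM. The MCAGF8 vault exceeded these by log2 differences of 1.82 for Col1a1 (SE 0.35, adjusted p = 0.0188) and 1.91 for Col1a2 (SE 0.31, adjusted p = 0.0113, limma). Replicate 3 had the most and replicate 1 the least of both type I chains. The bone list followed the same order, at 1726, 1956 and 3075 FPKM, of which Sparc alone made up 1139, 1341 and 1539 FPKM.

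Col3a1 measured 1129, 1082 and 1230 FPKM in the base and was higher in the MCAGF8 vault by 1.36 on the log2 scale. Col5a1 measured 98.0, 133 and 154 FPKM and Col5a2 measured 166, 258 and 264 FPKM in the base, with log2 differences of 1.22 and 1.29. Col6a1 measured 166, 175 and 193 FPKM, with a log2 difference of 1.01. The type V and type VI chains were thus separated from the MCAGF8 vault by about the same margin, and their calls held in all 16 other settings. The call of Col3a1 was lost in 5 of those settings, among them without MCAGF8 replicate 1 (adjusted p = 0.122) or 3 (0.107) and with only the 2 groups in the fit (0.130), its highest adjusted p.

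Col12a1 measured 210, 448 and 220 FPKM in the base, and its log2 difference was 1.42 (SE 0.31, adjusted p = 0.0332, limma). Col14a1 measured 54.6, 107 and 72.5 FPKM, with a log2 difference of 1.55. Control base replicate 2 held the most of both fibril-surface chains as well as the most cartilage RNA, and the call of Col12a1 was lost in 4 settings, without control base replicate 3 (adjusted p = 0.110), without MCAGF8 replicate 1 (0.143) or 3 (0.116) and with only the 2 groups in the fit (0.103).

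Col22a1 measured 3.85, 5.71 and 15.0 FPKM in control base replicates 1 to 3, each above the MCAGF8 vault. The log2 difference was -1.67 (SE 0.48, adjusted p = 0.0862, limma), and the call was lost in 12 of the 16 other settings. Among the libraries left out, those were control vault replicate 1 (adjusted p = 0.121), 2 (0.101) and 3 (0.124), MCAGF8 replicates 1 (0.284) and 3 (0.235) and control base replicate 3 (0.194). Control base replicate 3, with the highest Col22a1 of the base, also had the most Ibsp (638 FPKM, against 189 and 199 in replicates 1 and 2). Col24a1 measured 8.25, 16.8 and 13.7 FPKM in the base, overlapped the MCAGF8 vault and differed by -0.45 with an interval from -1.16 to 0.25 (adjusted p = 0.470, limma).

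The third comparison described how the members differ between normal base and normal vault. All 10 were lower in the base by their means, 7 were called lower and 9 did not overlap with the control vault, beside 1.21% of all genes called lower and 6.69% lower without overlap. Col1a1 was 4.79-fold and Col1a2 4.33-fold lower by means, with log2 differences of -2.30 and -2.14 (adjusted p = 0.0160 and 0.0158, limma). Col5a2 (-1.51), Col14a1 (-1.19), Col3a1 (-1.12), Col5a1 (-1.06) and Col6a1 (-0.84) were also called. Col12a1 (-0.99, adjusted p = 0.189) and Col24a1 (-0.87, adjusted p = 0.253) were lower without overlap but not called. Col22a1 was not separated from the control vault, since 15.0 FPKM in base replicate 3 exceeded the 9.75 FPKM of control vault replicate 2 (-0.997, interval from -2.08 to 0.08, limma).

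The calls of the type I chains and of Col5a2 held in every other setting, and those of the others depended on the libraries in the fit. The count of members called was 3 without control vault replicate 1, 2 or 3, 4 without MCAGF8 replicate 1 or 3 or control base replicate 3, 6 without MCAGF8 replicate 2 or control base replicate 1, and 8 without control base replicate 2. In the last case Col12a1 was called too (adjusted p = 0.0132). The 3 comparisons share their groups in pairs, so they are not independent of each other.

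**Figure D3:**
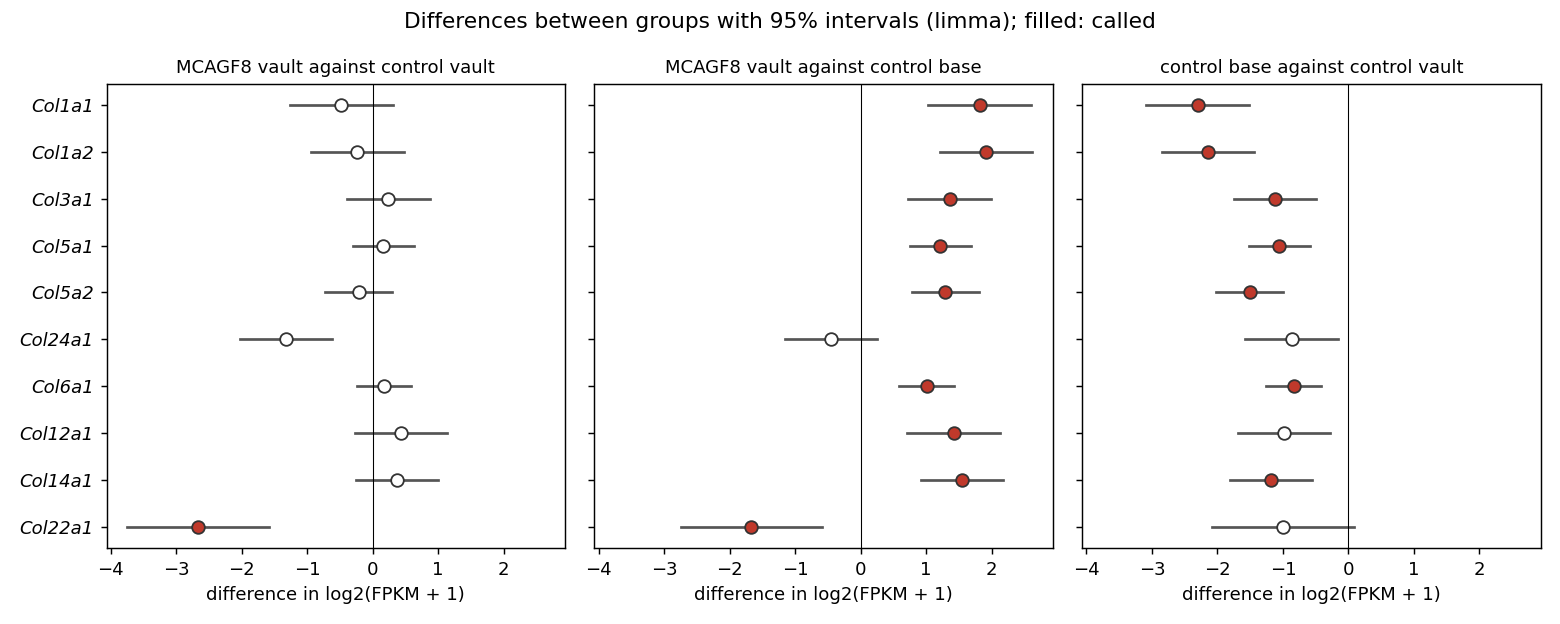
Differences in log2(FPKM + 1) of each member in the 3 comparisons, first group minus second, with 95% intervals from limma and filled points for called genes. In the vault comparison only the Col22a1 interval is called (-2.67), against the base 8 members lie to the right of 0 (1.01 to 1.91), and all 10 lie to the left of 0 between base and control vault.

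Because FPKM is per length, members can be compared within a library without scaling between libraries. The ratio of Col1a1 to Col1a2, whose chains join as a pair of the first with a single copy of the second in most type I collagen, was 1.08 ± 0.10 in the control vault, 0.910 ± 0.080 in the MCAGF8 vault and 0.970 ± 0.13 in the control base (SD, n = 3 each). These ratios overlapped in all 3 comparisons (exact permutation p of 0.2, 0.5 and 0.4, two-sided).

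The ratio of Col3a1 to Col1a1 shifted more. It was 0.630, 1.04 and 0.615 in control vault replicates 1 to 3, 1.14, 1.09 and 1.45 in the MCAGF8 vault and 2.26, 1.72 and 1.21 in the control base. Every MCAGF8 library and every base library lay above the control vault, with log2 differences of 0.72 and 1.18. With 3 libraries against 3 the exact permutation p cannot go below 0.1, which both reached, and it was 0.171 after Benjamini-Hochberg adjustment over 12 ratio tests. Control vault replicate 2, the muscle-rich library, lay close under the lowest MCAGF8 ratio. Col3a1 made up 22.8% of the members' summed FPKM in the control vault, 28.8% in the MCAGF8 vault and 33.2% in the base, and Col1a1 made up 30.8%, 23.7% and 19.9%. Accordingly Col3a1 stood first in the order of mean levels in the MCAGF8 vault and in the base, ahead of Col1a2 in every library of both groups, whereas Col1a1 stood first in the control vault.

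The rare chains were also set against Col1a1. The ratio of Col22a1 to Col1a1 was 0.00450 ± 0.00079 in the control vault, 0.000679 ± 0.00044 in the MCAGF8 vault and 0.0105 ± 0.0038 in the base, without overlap between any pair of groups (exact permutation p = 0.1 for each). The base thus had the highest ratio of Col22a1 to Col1a1, although its mean Col22a1 (8.19 FPKM) was below that of the control vault (15.7 FPKM), with overlap. The ratio of Col24a1 to Col1a1 was 0.00711 ± 0.0017, 0.00384 ± 0.0015 and 0.0189 ± 0.0069 in the same order. Its MCAGF8 and control vault values overlapped narrowly (exact permutation p = 0.2), and the base lay above both vaults in every library.

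**Figure D4:**
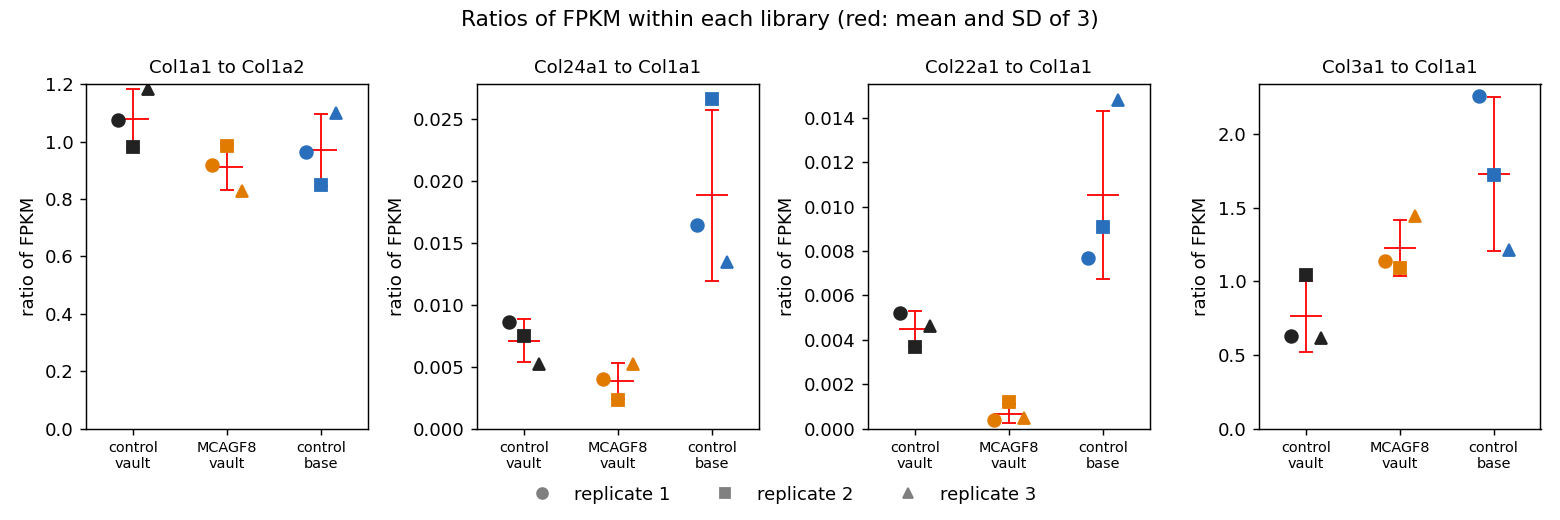
Ratios of FPKM within each library for 4 pairs of members (linear axes from 0), by group, with shapes for replicates 1 to 3 and the mean ± SD in red. Col3a1 to Col1a1 is above the control vault in all MCAGF8 and base libraries, Col22a1 to Col1a1 is separated among all 3 groups, and Col1a1 to Col1a2 overlaps throughout.

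Across the 9 libraries the members fell into a large group and a pair. On log2(FPKM + 1) the Pearson correlation of Col1a1 with Col1a2 was 0.99, of Col3a1 with Col6a1 0.98 and of Col12a1 with Col14a1 0.97. Col22a1 correlated with Col24a1 at 0.73 and with the other 8 members between -0.43 and 0.16. These values describe 9 libraries in 3 groups, which share group means and tissue content.

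Among 12933 genes with a mean of at least 5 FPKM, the pattern most like that of Col1a1 was that of Col1a2, followed by Man2b2 (r = 0.99), a lysosomal mannosidase, and Sparc (r = 0.98), a collagen-binding matrix glycoprotein of bone. For Col12a1 the nearest were Fn1, which encodes fibronectin, Tsc22d2 and Gorab (r = 0.99 each). For Col22a1 they were Ibsp, Spp1 (osteopontin) and Phospho1 (a phosphatase of matrix mineralization), with r of 0.98, 0.98 and 0.97. The r of Col22a1 with Mylpf was 0.62 and with Sp7, the osteoblast transcription factor, 0.96. For Col1a1 the r was only 0.09 with Ibsp and 0.24 with Sp7. For Col24a1 the nearest were Lmo7, Ell2 and Uso1, with r of 0.97, 0.95 and 0.90, and its r with Ibsp was 0.72.

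Genes that work with these collagens were counted in 6 lists: other chains of the same families, cartilage collagens, procollagen processing, crosslinking, fibril partners, and receptors and uptake. Between the MCAGF8 and the control vault 0 of the 50 tested genes of these lists were called, and 1 was higher and 3 were lower at an unadjusted p under 0.05, where 2.86% and 3.48% of all genes were. Pcolce, which enhances cleavage of the procollagen C-propeptide, measured 503 ± 37.5 FPKM in the control vault and 293 ± 3.03 in the MCAGF8 vault without overlap (-0.77, adjusted p = 0.148). Its relative Pcolce2 measured 7.51 ± 2.13 and 2.41 ± 0.630 FPKM (-1.31, adjusted p = 0.421), and Loxl4, a lysyl oxidase, 10.9 ± 3.16 and 1.97 ± 0.984 FPKM (-2.02, adjusted p = 0.296, all limma). Aebp1, a secreted protein that binds fibrillar collagen, measured 149 ± 11.8 and 246 ± 38.9 FPKM (0.71, adjusted p = 0.353). Of the 8 cartilage collagens 7 were higher and 1 was lower, with a median log2 difference of 0.64.

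Against the control base, 16 of the 50 tested genes of these lists were called higher and 3 lower in the MCAGF8 vault. Over all genes 2.98% were called higher and 5.41% lower, so the count called lower was near the share of all genes. Fibril partners made up 8 of those called higher, of 11 tested, among them Aebp1 (2.17), Fmod (fibromodulin, 2.05), Thbs2 (thrombospondin 2, 1.74) and Bgn (biglycan, 1.48). Itga11, a chain of a collagen-binding integrin (2.13), Adamts2, the procollagen N-proteinase (1.64), Col6a2 (1.16), Col16a1 (1.08), Lox (0.96), Pcolce (0.90), Mrc2, the endocytic collagen receptor (0.89), and Mmp14, a membrane collagenase (0.87), rose with them. Those called lower were Col10a1, the collagen of hypertrophic cartilage (-7.00), Pcolce2 (-2.29) and Loxl4 (-2.22). Col10a1 measured 1.49 ± 0.555 FPKM in the control vault, 0.406 ± 0.0521 in the MCAGF8 vault and 283 ± 326 in the base.

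Between the base and the control vault, 12 genes of these lists were called lower and 1, Col10a1, higher (6.20), beside 1.21% of all genes called lower and 1.85% called higher. Among those called, Fmod (-2.48), Itga11 (-1.84), Thbs2 (-1.83), Pcolce (-1.67), Tnc (tenascin C, -1.59), Aebp1 (-1.46) and Dcn (decorin, -1.34) had the largest falls. Postn (periostin), a partner of type I fibrils in bone and its covering, measured 311 ± 91.6 FPKM in the control vault, 458 ± 220 in the MCAGF8 vault and 511 ± 197 in the base (SD, n = 3 each) and was not called in any comparison.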

How the data were processed

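The authors sequenced stranded poly(A) libraries from pools of 3 tissue samples as single reads, aligned them with gSNAP and estimated FPKM with Cufflinks; the deposited table holds FPKM per gene and library, without counts, so depth is unknown and no interval for counting error could be given. Build, annotation and tool versions: not given in the sources used here. Values of 63 rows that repeated an identifier were summed. The 9 genes that held the placeholder 999999999, in 17 cells, were left out whole. These steps affected 0 members. Of 43548 identifiers 42384 matched a symbol.

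Differences were tested with limma 3.58.1 (R 4.3.3, trend, two-sided) on log2(FPKM + 1) over 18714 genes with a mean of at least 0.5 FPKM, with 1 mean per group over 9 libraries. Calls needed p under 0.05 before and under 0.1 after Benjamini-Hochberg adjustment over all genes tested. Ratios within libraries were compared by exact permutation tests (scipy 1.17.1). The steps were tested on simulated data. The genes named were the 10 members, from each list the called genes and those of highest level, the 3 nearest patterns of 4 members and the tissue markers. Of the listed genes Foxc2, Tubb3 and Col21a1 had no row. The members and lists were chosen with earlier results of these data known. Replicates were separate pools, and pool membership beyond that was not given. Other settings were another added value, other filters, rescaled sums, quantile normalization, a replicate block, the 2 groups alone and each library left out in turn. Positions are from GENCODE M21 and promoter sequences from RefSeq (GRCm38.p6).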

Additional observations from a re-analysis of the deposited data

How the results depend on the processing

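In the 12 within-library ratio tests, leaving out each library moved the log2 difference by less than its pooled SD. The direction was not always kept. The difference of Col1a1 to Col1a2 between MCAGF8 vault and base (-0.088, pooled SD 0.16) changed sign without control base replicate 3. Genes called between the vaults numbered 113, and 191 with log2(FPKM + 0.1), 66 with no filter, 71 with a mean of at least 5 FPKM, 264 with only the 2 groups, and 11 to 273 with a library left out. Members called there numbered 1, and 0 with no filter and 0 to 2 with a library left out (0 without control vault replicate 1 or 3 or any MCAGF8 library, 2 without control base replicate 2). Genes called between MCAGF8 vault and base numbered 1571, and 834 with a mean of at least 5, 904 with only the 2 groups and 587 to 4561 with a library left out (4561 without control base replicate 2), while members called ran from 6 to 9. Genes called between base and control vault numbered 573, and 291 with a mean of at least 5, 139 with only the 2 groups and 130 to 1335 with a library left out, while the 7 members called became 4 with rescaled sums, 3 with only the 2 groups and 3 to 8 with a library left out. Under quantile normalization Col1a2 (0.15) and Col5a2 (0.049) reversed between the vaults. Rescaled sums shifted the log2 differences of single genes by a median of 0.16 between the vaults and 0.20 for the MCAGF8 vault against the base, and quantile normalization by 0.15 for the latter and -0.10 between base and control vault. Whether equal replicate numbers mark paired pools is not stated. Deviations from group means correlated between them from -0.55 to 0.37, which cannot decide it, since tissue content also varied among libraries. With a replicate block the calls fell to 19, 918 and 234 genes and to 0, 7 and 3 members in the 3 comparisons. The adjusted p of Col22a1 between the vaults was then 0.236 (limma). The causes of these changes were not tested.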
